A study of Caenorhabditis elegans with 39 samples.

Results

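The small RNAs of the wild type distal gonad were set against those of the whole adult in 1 table of the series, read in full by its feature classes. It holds 6 of the 39 libraries, 3 of dissected distal gonads and 3 of whole animals, and 21815 features: 375 miRNAs, 15366 piRNAs, 3640 loci of CSR-1-class 22G-RNAs and 2434 loci of WAGO-class 22G-RNAs. Both groups were the wild type strain N2, grown at 20°C on E. coli and taken as gravid adults 68 to 70 h old. The gonad samples kept the distal arms, which hold mitotic and meiotic germ cells, and lost the proximal arms with the oocytes and sperm, whereas a gravid whole animal also holds somatic tissues, gametes and embryos. Each gonad sample pooled many dissected gonads. Gonads were gathered in Trizol on ice over hours and went through freeze/thaw cycles, and whole animals were frozen in liquid nitrogen. The study describes collection into Trizol, freezing in liquid nitrogen and thawing for both kinds of sample. Gonads alone were dissected, so tissue and handling cannot be told apart. From both, RNAs of 16 to 30 nt were sequenced after polyphosphatase treatment, which opens the 5′ triphosphate of 22G-RNAs for cloning.

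Several kinds of small RNA are read here. miRNAs guide Argonautes to partly matched sites in mRNAs and are cut as a 5p and a 3p arm from a hairpin. piRNAs, which in C. elegans begin with U and are named 21ur, bind the Piwi protein PRG-1 in the germline and lead their targets into RNAi. 22G-RNAs are antisense copies made by RNA-dependent RNA polymerases on mRNA templates. WAGO-class 22G-RNAs bind silencing Argonautes, and CSR-1-class 22G-RNAs bind CSR-1 and come from genes that the germline expresses.

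The libraries differed in depth. The reads worked back from the deposited values, normalized reads per feature, came to 4215264, 7051210 and 5033862 in gonad libraries 1 to 3, against 535957, 1642602 and 505952 in whole animal libraries 1 to 3. A single read was therefore worth 0.252 to 0.426 normalized reads in gonads and 1.41 to 4.20 in whole animals, so that low values in whole animals rest on a few reads. Values of tested features correlated by 0.987 to 0.991 between gonad libraries and by 0.919 to 0.927 between whole animal libraries (Pearson's r of log2 values across 7191 features, a description, since features are not replicates). Whole animal library 2, the deepest of its group, stood closer to the gonads (r = 0.796 to 0.817) than whole animal libraries 1 and 3 (0.682 to 0.730), and counts without it are given beside the results.

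The mRNA libraries of the same sample types were read as a check on the labels. Of 11 germline genes, 10 had higher mRNA in gonads, and 16 of 16 tested intestine genes, 17 of 17 muscle genes and 11 of 12 neuron genes had lower mRNA (limma), beside 26.1% higher and 52.6% lower of all 12761 mRNAs tested. Of these, 8 intestine, 2 muscle and 6 neuron genes, and 3807 of all mRNAs, passed the filter on low values through whole animals alone and had to be lower. The mRNAs called read in both groups reached 10 in at least 1 library of each group, so some may still have passed mostly through 1 group. Among them, 8 of 8 intestine, 15 of 15 muscle and 5 of 6 neuron genes were lower, beside 32.5% of 8931. The summed mRNA of the 17 intestine genes was 477 to 1006 normalized reads in gonads and 254694 to 269829 in whole animals, with mtl-1, a metallothionein gene, at 0 in every gonad library. For the 17 muscle genes it was 1361.5 to 1697 in gonads and 67988 to 99411 in whole animals, with myo-2, the pharyngeal myosin gene, at 0 in every gonad library. The 30 major sperm protein genes, markers of sperm, summed to 293, 1272 and 228 in gonad libraries 1 to 3 and to 1771, 2208 and 4172 in whole animal libraries 1 to 3. The 27 listed spermatogenesis genes summed to 2765, 3260 and 2693 in gonads and to 2714, 2659 and 3226 in whole animals. Of the 16 read in both groups, 11 were lower and 3 higher. Of 25 oocyte and eggshell genes read in both groups, 22 had higher and 2 lower mRNA in gonads, beside 37% higher and 32.5% lower of the 8931. Transcripts of intestine and muscle were thus low in gonads and still read. The part of other tissues in the small RNA values was not tested.

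CSR-1-class 22G-RNAs and miRNAs took opposite shares between the samples. CSR-1-class loci held 44.3, 43.4 and 45.7% of all normalized reads in gonad libraries 1 to 3 and 17.9, 20.5 and 21.1% in whole animal libraries 1 to 3. miRNAs held 1.45, 1.75 and 1.74% in gonads and 26.2, 30.7 and 26.3% in whole animals. In both classes the groups lay far apart. piRNAs took 3.17, 3.26 and 3.47% of the gonad reads and 5.52, 3.81 and 5.99% of the whole animal reads, with library 2 nearest to the gonads. WAGO-class loci took 51.1, 51.6 and 49.1% in gonads and 50.4, 44.97 and 46.6% in whole animals, and the groups overlapped. With 3 libraries against 3, the 2-sided exact permutation test cannot go below p = 0.1, the value found for CSR-1-class, miRNA and piRNA shares (0.133 when adjusted over the 4 classes), and it gave p = 0.2 for WAGO-class shares. Wilson 95% intervals reached at most 0.137 percentage points to either side and cover counting error only.

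**Figure D1:**
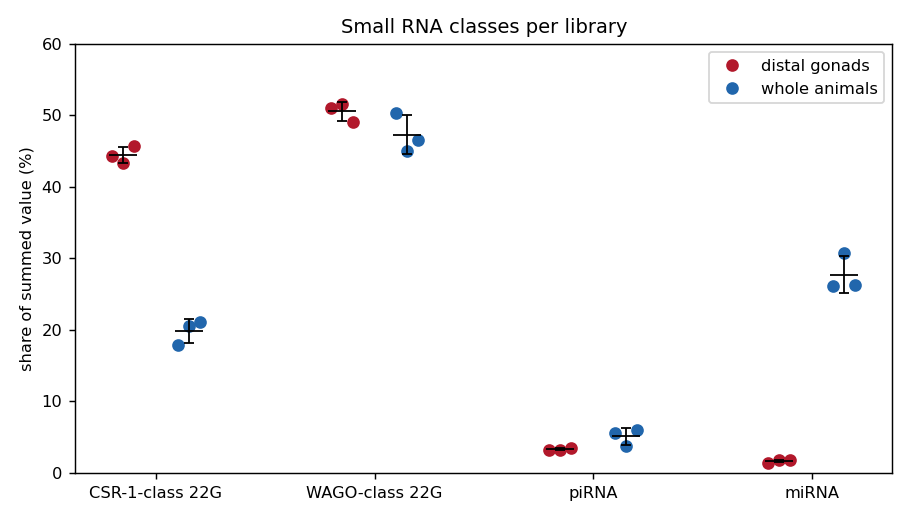
Share of each small RNA class in the summed normalized reads (%), with 1 point per library, gonads in red and whole animals in blue, and the mean with SD (n = 3) in black. CSR-1-class loci hold 43.4 to 45.7% in gonads and 17.9 to 21.1% in whole animals, miRNAs 1.45 to 1.75% and 26.2 to 30.7%, and the WAGO-class points of the 2 groups overlap.

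A few miRNAs held much of the whole animal total. The 10 highest features of each library took 5.86 to 5.92% of the normalized reads in gonads and 17.9 to 19.6% in whole animals. miR-58-3p, of the miRNA family related to fly bantam, alone took 0.0820, 0.0759 and 0.0602% in gonads and 7.95, 7.99 and 8.69% in whole animals. Since a share depends on all other features, the 2 classes of 22G-RNA were also set against each other: CSR-1-class loci made up 46.5, 45.7 and 48.2% of the 22G-RNA reads in gonads and 26.2, 31.3 and 31.2% in whole animals (exact permutation test p = 0.1, the smallest it can give). With miRNAs left out, WAGO-class loci held 51.8, 52.5 and 49.9% in gonads and 68.3, 64.9 and 63.2% in whole animals, and these groups no longer overlapped.

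Single features were tested next. A feature with at least 10 normalized reads in at least 3 of the 6 libraries was tested with limma on log2 of the value plus 1, and a feature counts as called where its p, adjusted by Benjamini-Hochberg over all 7191, lies under 0.05 with 1.3-fold or more between the groups. Of 7191 features tested, 2293 (31.9%) were higher in gonads and 1669 (23.2%) lower, and the remaining 3229 had no call. By class, 2059 of 3379 CSR-1-class loci were higher and 29 lower, 132 of 2421 WAGO-class loci were higher and 843 lower, 99 of 1253 piRNAs were higher and 670 lower, and 3 of 138 miRNAs were higher and 127 lower. Median log2 changes were 0.71 for CSR-1-class loci, -0.24 for WAGO-class loci, -1.08 for piRNAs and -5.03 for miRNAs, beside 0.18 over all features tested. Without whole animal library 2 the same features gave 2454 higher and 1760 lower calls, with 2120 higher and 42 lower CSR-1-class loci, 183 and 881 WAGO-class loci, 146 and 711 piRNAs, and 5 and 126 miRNAs. In these bulk samples, fewer cells of a type and less small RNA per cell cannot be told apart.

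The scaling of the libraries moves this split. Higher calls were 57.9% of all calls with the deposited values, 72.5% with library totals made equal, 66.8% with TMM scaling over all features and 6.71% with CSR-1-class totals made equal. The median change of all features was 0.18, 0.47, 0.35 and -0.72 in that order. In each of the 4 scalings the class medians kept 1 order, with CSR-1-class loci highest, then WAGO-class loci, piRNAs and miRNAs. With CSR-1-class totals made equal, 265 CSR-1-class loci, 1 WAGO-class locus and 30 piRNAs were higher, so most calls of higher 22G-RNA reads depend on the scaling. That scaling takes out any change of the CSR-1 class as a whole by construction. It cannot test whether the class changed, and it shifts all other features by the same step.

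**Figure D2:**
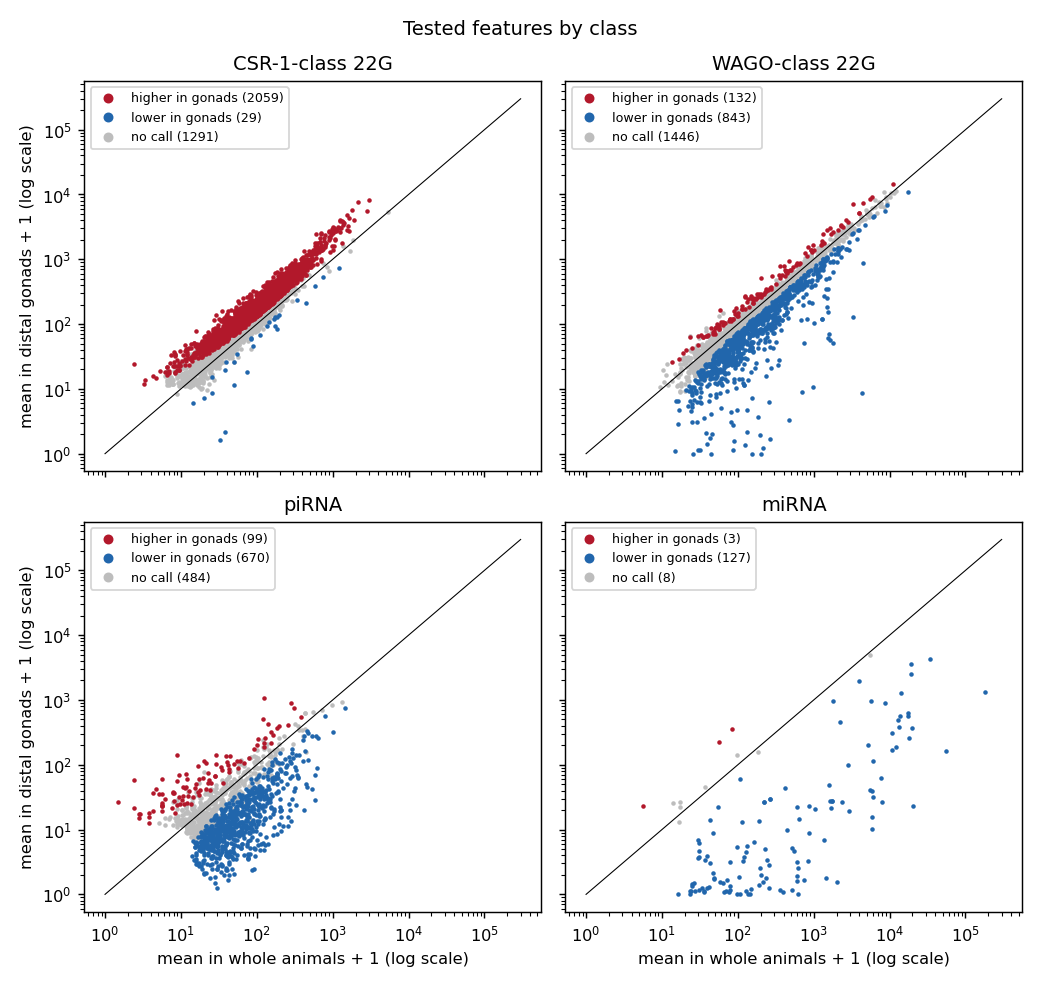
Mean normalized reads plus 1 in distal gonads (y axis, log scale) and in whole animals (x axis, log scale) for each tested feature, 1 panel per class, with features called higher in gonads in red, lower in blue and without a call in grey (limma, n = 3 per group). CSR-1-class loci lie as a band mostly above the line of equal values, WAGO-class loci along it with 843 called lower, piRNAs spread to both sides, and all but 11 of the 138 miRNAs were called lower.

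miRNAs fell almost throughout. Of the 138 tested, 71 passed the low-value filter through whole animals alone and had to be lower to be there. Among the 66 that reached 10 normalized reads in both groups, 56 were lower, 2 higher and 8 without a call, and the median change was -4.70. The other 237 of the 375 miRNAs were not tested. Of the tested miRNAs, 7 had no read in any gonad library.

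miR-58-3p, the most abundant small RNA of whole animals, had 1475, 1348 and 1104 normalized reads in gonad libraries 1 to 3, against 174835, 185155 and 184709 in whole animal libraries 1 to 3. The gonad libraries lay close together and far below every whole animal library (log2-scale change -7.12 ± 0.11 SE, adjusted p = 5.96e-08, limma). miR-80-3p, of the same family, had 446, 779.8 and 489 in gonads and 11491, 26619 and 14494 in whole animals (-4.89), and the relatives miR-81-3p and miR-82-3p changed by -4.74 and -4.57. Of the 4 family members tested, miR-58-3p had the most negative change.

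miRNAs tied to single somatic tissues were low or at 0 in gonads. Of the 6 listed 4 were tested and lower, and miR-60-3p and miR-124-3p among them passed the filter through whole animals alone and had to be lower. Among all 138 miRNAs tested, 127 (92%) were lower. miR-60-3p, an intestinal miRNA, had 0 reads in all 3 gonad libraries, against 488, 586 and 798 normalized reads in whole animals, so it was at least 598-fold lower in gonads when 3 reads per library are taken as the floor. miR-124-3p, a miRNA of sensory neurons, was likewise at 0 in gonads and at 144, 45.2 and 101 in whole animals, at least 92.6-fold lower. miR-228-5p, known from glia, had 35.4, 48.9 and 30.6 normalized reads in gonads and 4277, 9290.2 and 3903 in whole animals (-7.12). In these 3 miRNAs no gonad library came near a whole animal library. By size of change miR-77-3p ranked beside miR-236-3p and miR-85-3p, which also passed through whole animals alone, and beside miR-60-3p and miR-1-3p. It had 26.9, 22.2 and 17.1 in gonads and 15456, 26201 and 19606 in whole animals (a log2 change of -9.78 ± 0.22 SE, adjusted p = 3.91e-07, limma).

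The heterochronic miRNAs, which time larval development, were also low in gonads. All 5 tested of the 7 listed let-7 family members and relatives of lin-4 were lower, let-7-5p having passed the filter through whole animals alone, with a median of -5.98. This stands beside 92% lower and a median of -5.03 for all tested miRNAs. let-7-5p had 2.13, 4.28 and 4.37 normalized reads in gonads and 336, 892 and 403 in whole animals (log2 change -6.80 ± 0.40 SE, adjusted p = 2.56e-05, limma). lin-4-5p had 128, 93.4 and 121 in gonads and 4966, 7473 and 5894 in whole animals (-5.72). Neither pair of groups overlapped. miR-48-5p, miR-84-5p and miR-237-5p changed by -5.98, -7.74 and -4.67 on the log2 scale. miR-795-5p and miR-241-5p had at most 15.5 normalized reads in any library and were not tested.

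The miR-35 family, miRNAs of oogenesis and the early embryo, supplied 3 of the 5 most abundant miRNAs of distal gonads and was nonetheless higher in whole animals. miR-39-3p had 4538, 5034 and 3393 normalized reads in gonads and 41977, 33079.5 and 26958 in whole animals (log2-scale change -2.97 ± 0.19 SE, adjusted p = 4.64e-05, limma). miR-37-3p had 3542, 3844 and 3233 in gonads and 18799, 25592 and 12738 in whole animals (-2.37), and miR-35-3p had 2341, 2989 and 2296 in gonads and 19894, 24168 and 14019 in whole animals (-2.90). All 8 members, of which miR-42-3p passed the filter through whole animals alone, were lower in gonads, with log2 changes of -2.37 to -5.10, and in all 8 the groups stayed apart. Among all tested miRNAs 92% were lower, with a median of -5.03. The members were not depleted evenly. miR-41-3p had 20.5, 19.6 and 19.7 normalized reads in gonads and 1997, 215 and 861 in whole animals (a log2 change of -5.10 ± 0.69 SE, adjusted p = 0.000913, limma), with the 3 whole animal libraries far from each other. miR-38-3p and miR-42-3p changed by -4.83 and -4.61, against -2.50 for miR-40-3p. Members of this family resemble each other in sequence, and how reads that fit several members were divided is not given in the sources used here.

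miR-51-5p stood apart from its own family. It was the most abundant miRNA of distal gonads by mean, with 2113, 3414 and 9543 normalized reads in gonad libraries 1 to 3, against 3982, 10144 and 2386 in whole animal libraries 1 to 3. Gonad library 3 and whole animal library 2 were the high ones, the groups overlapped, and no change was called (log2 change -0.16 ± 0.65 SE, adjusted p = 0.846, limma). The other 5 members, miR-52-5p to miR-56-3p, were all lower in gonads, miR-54-3p having passed the filter through whole animals alone, with log2 changes of -4.59 to -6.91. Being lower was common to 92% of the tested miRNAs, whose median was -5.03. miR-52-5p had 58.9, 67.8 and 59.0 in gonads and 7070.0, 9042 and 6718 in whole animals, and miR-56-3p had 580.0, 696 and 618 in gonads and 13229.6, 31362 and 8369 in whole animals. In those 5 members no gonad library reached the level of any whole animal library.

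Only 3 miRNAs were called higher in gonads. miR-78 had 379.5, 356 and 318 normalized reads in gonads and 36.9, 147 and 67.2 in whole animals (log2-scale change 2.28 ± 0.43 SE, adjusted p = 0.00361, limma). miR-250-5p had 194, 207 and 259 in gonads and 41.01, 63.5 and 63.0 in whole animals (a log2 change of 1.97 ± 0.21 SE, adjusted p = 0.00035, limma). In both the lowest gonad library lay above the highest whole animal library. miR-253-3p, near the limit of reading, had 18.3, 24.2 and 24.4 in gonads and 4.10, 9.88 and 0 in whole animals (log2 change 2.60 ± 0.82 SE, adjusted p = 0.0286, limma). It passed the filter through gonads alone and so had to be higher. Its call was lost without any 1 of the gonad libraries (2.53 to 2.73), without whole animal library 1 when the filter was applied anew (2.81) and with CSR-1-class totals made equal (1.92). Without whole animal library 2, the number called higher was 5.

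The 2 arms of a hairpin did not always move together. Both arms were tested for 29 hairpins, and in 23 of them both were lower. For miR-250 the 5p arm was higher in gonads and the 3p arm lower: miR-250-3p had 1059.7, 883 and 919 normalized reads in gonads and 1472, 1973 and 1941 in whole animals (-0.90, adjusted p = 0.00145, limma). The 5p arm thus made up 15.4, 19.01 and 22.0% of the hairpin's reads in gonads and 2.71, 3.12 and 3.14% in whole animals. In the miR-41 hairpin, miR-41-5p had 116, 169.8 and 137 in gonads and 69.7, 168 and 54.6 in whole animals and no call (0.68, adjusted p = 0.172, limma), and was called higher without whole animal library 2 (1.16). Its share of the hairpin was 85.0, 89.6 and 87.4% in gonads and 3.37, 43.9 and 5.96% in whole animals, so that the major arm in gonads was the minor one in whole animals. The miR-74 hairpin had the same exchange, with 95.2, 96.3 and 94.0% of its reads on the 5p arm in gonads and 48.1, 32.6 and 30.4% in whole animals. The gonad shares rest on 21, 54 and 50 reads, worked back from the values, on both arms in gonad libraries 1 to 3. miR-74-3p passed the filter through whole animals alone. In 26 of the 29 hairpins the arm that was scarcer in whole animals had the less negative change, and the median gap between the arms was 1.64 log2 units. These counts are a description, since the scarcer arm was picked from the same values.

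The miR-61 arms had small changes beside the median of -5.03 for miRNAs. miR-61-3p had 1577, 2084 and 2140.3 normalized reads in gonads and 2919.9, 6187 and 2878 in whole animals (log2-scale change -0.96 ± 0.29 SE, adjusted p = 0.0255, limma), a call lost without gonad library 1 (-0.82) or 3 (-1.04), without gonad library 2 when the features of all 6 libraries were kept (-1.02), with TMM scaling (-0.79) and with totals made equal over libraries (-0.67). miR-61-5p had 189, 138 and 149 in gonads and 197, 182 and 172 in whole animals and no call (-0.22 ± 0.14 SE, adjusted p = 0.228, limma), and was called lower with CSR-1-class totals made equal (-1.09).

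**Figure D3:**
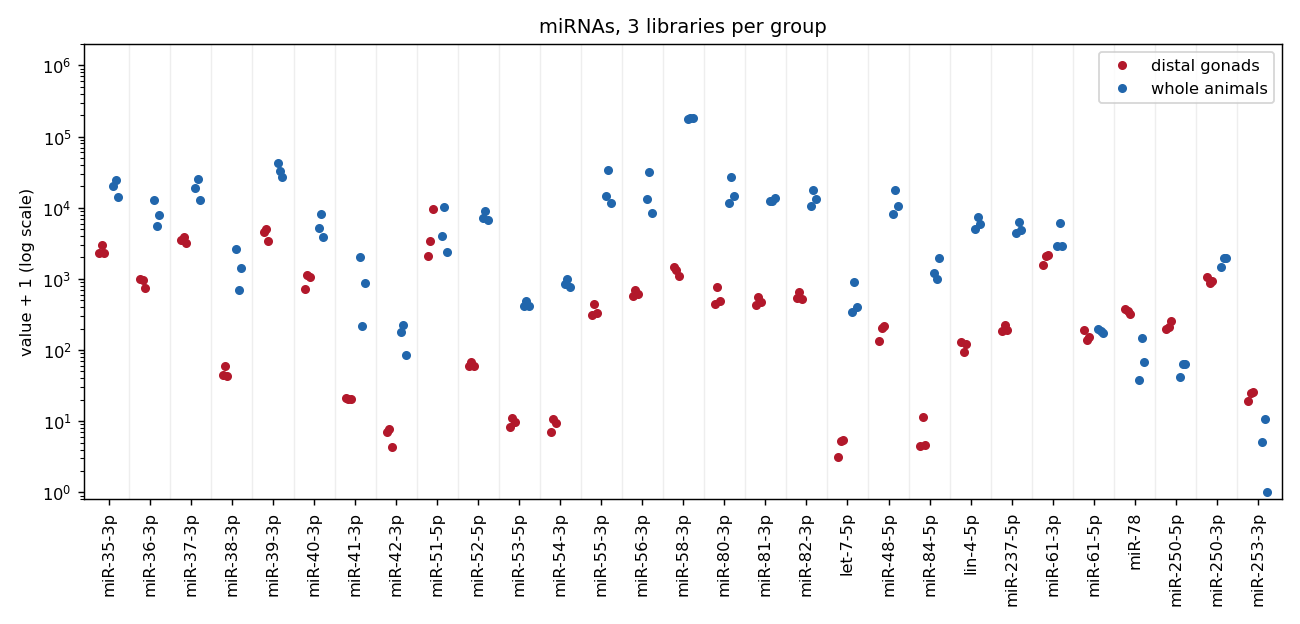
Normalized reads plus 1 (log scale) of 29 miRNA arms in each library, with the 3 gonad libraries in red left of the 3 whole animal libraries in blue. The miR-35, miR-58 and let-7 groups lie lower in gonads, miR-51-5p overlaps between groups while miR-52-5p to miR-56-3p do not, and miR-78, miR-250-5p and miR-253-3p lie higher in gonads.

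piRNAs split in both directions. A read was found for 7276 of the 15366 piRNAs in gonads and for 6478 in whole animals, and 7046 had no read in the 6 libraries. The 1253 tested held 87.8 to 88.7% of the piRNA reads in gonads and 78.8 to 82.5% in whole animals. Of these, 276 passed the filter through whole animals alone and 23 through gonads alone. Among the 954 that reached 10 normalized reads in at least 1 library of each group, 400 were lower, 80 higher and 474 without a call. Their median change was -0.65. Of 113 tested piRNAs with a gonad mean of at least 100 normalized reads, 31 were higher, 28 lower and 54 without a call, and of 234 with a whole animal mean of at least 100, 16 were higher, 165 lower and 53 without a call. Each of these sets was picked by the level of the group it names.

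21ur-3975 was the most abundant piRNA of distal gonads, with 994, 1016 and 1253 normalized reads in gonad libraries 1 to 3, against 119, 165 and 84.0 in whole animal libraries 1 to 3. Every gonad library was far above every whole animal library (a log2 change of 3.18 ± 0.23 SE, adjusted p = 8.27e-05, limma). 21ur-5432 had 747, 1019 and 938 in gonads and 258, 236 and 340.3 in whole animals (1.70), and 21ur-554 had 716, 793 and 756 in gonads and 209, 399 and 307 in whole animals (1.35, adjusted p = 0.00174, limma). These 3 piRNAs belonged to the 5 with the highest gonad means, and the remaining pair, 21ur-5107 and 21ur-8974, overlapped between groups. 21ur-5107 had 825, 936 and 1073 in gonads and 1526, 876 and 1575 in whole animals (-0.45, adjusted p = 0.132, limma), and 21ur-8974 had 702, 815 and 954 in gonads and 1103, 696 and 1168 in whole animals (-0.24, adjusted p = 0.362, limma). Without whole animal library 2 both were called lower in gonads (-0.72 and -0.47).

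Among abundant piRNAs whose groups did not overlap, 21ur-7530, 21ur-3975, 21ur-5591, 21ur-2917 and 21ur-4219 had the largest increases, of 2.303 to 4.09 on the log2 scale. 21ur-2917 had 121, 112 and 110.8 in gonads and 24.6, 16.9 and 16.8 in whole animals (log2 change 2.52 ± 0.20 SE, adjusted p = 0.000117, limma). 21ur-4219 had 148, 134 and 141 in gonads and 28.7, 35.3 and 21.01 in whole animals, and 21ur-5591 had 102, 103 and 117 in gonads and 8.202, 45.2 and 8.402 in whole animals, with whole animal library 2 the highest of its group in the case of 21ur-5591. The largest decreases were those of 21ur-7463, 21ur-2376, 21ur-2295, 21ur-2433 and 21ur-1719, of -4.19 to -4.38, and of these 21ur-7463, 21ur-2295 and 21ur-1719 passed the filter through whole animals alone. 21ur-2433 had 26.4, 31.2 and 24.05 in gonads and 808, 262 and 672 in whole animals (log2-scale change -4.22 ± 0.39 SE, adjusted p = 0.000221, limma). 21ur-2376 had 11.51, 10.6 and 8.74 in gonads and 369, 116 and 286 in whole animals (-4.37). 21ur-2295 had 6.82, 2.27 and 2.55 in gonads and 213, 19.8 and 139 in whole animals (-4.25). For all 3, whole animal library 2 was the lowest of its group and still well above the gonads. 21ur-2289, by contrast, had 392, 329 and 319.6 in gonads and 377, 371 and 328 in whole animals, and 21ur-4974 had 153, 169 and 209 in gonads and 172, 217 and 155 in whole animals, with changes of -0.05 and -0.03 and no call. These 2 piRNAs (-0.92 and -0.90) and 21ur-5107 and 21ur-8974 (-1.32 and -1.11) were called lower with CSR-1-class totals made equal.

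The piRNAs varied more between whole animals than between gonads. Whole animal libraries held 29601 to 62603 piRNA reads and gonad libraries 133484 to 230125, so counting error was larger in whole animals. Its part in this spread was not tested. Summed over the 670 piRNAs called lower, gonad libraries 1 to 3 held 16685, 16579 and 16559 normalized reads and whole animal libraries 1 to 3 held 68354, 40534 and 70704. Whole animal library 2 was the lowest of its group for 470 of these 670 and the highest of its group for 62 of the 99 called higher. It lay between the gonads and the other whole animal libraries in both sets. Its greater depth and its distance from the other whole animal libraries occur together, and their part was not tested. Over the 99 called higher, the sums were 10925, 11785 and 13028 in gonads and 4064, 5460.1 and 4104 in whole animals. The 100 highest piRNAs of each library held 43.9, 45.9 and 44.4% of its piRNA reads in gonads and 33.4, 33.0 and 32.4% in whole animals, so that the gonad pool rested more on its leading members.

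**Figure D4:**
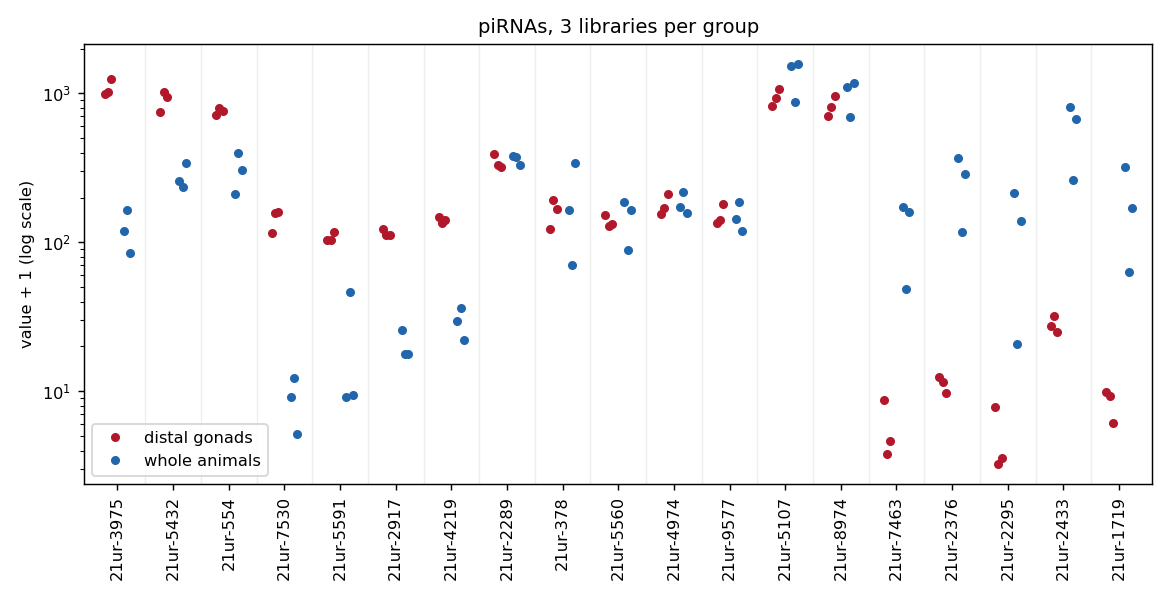
Normalized reads plus 1 (log scale) of 19 piRNAs in each library, with the 3 gonad libraries in red left of the 3 whole animal libraries in blue. The first 7 lie higher in gonads, the middle 7 have no call, and the last 5 lie lower in gonads, where whole animal library 2, the middle blue point, is the lowest of its group.

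CSR-1-class loci rose as a group, and by little each. The 2059 called higher had a median log2 change of 0.93, and the change of all 3379 tested ran from -0.12 at percentile 5 to 1.54 at percentile 95. The class supplied 2059 of the 2293 features called higher, so it sets most of the 31.9% it is read against. Values per locus are not scaled by length, so levels are not compared between genes. Of the loci with the most gonad reads, snrp-200, which encodes a spliceosomal helicase, had 8207, 7744 and 8723 in gonads and 2829.6, 3284 and 3004 in whole animals (a log2 change of 1.44 ± 0.0890 SE, adjusted p = 3.25e-05, limma). klp-7, which encodes a kinesin that takes microtubules apart, had 7822, 7038 and 7951 in gonads and 1698, 2760.4 and 2008 in whole animals (log2 change 1.85 ± 0.17 SE, adjusted p = 0.000219, limma). set-9 changed by 1.67 and cls-2, which encodes a CLASP regulator of microtubules, by 1.01. In these 4 loci the lowest gonad library lay above the highest whole animal library. The direction of the class rests on the scaling: with CSR-1-class totals made equal, 265 loci were higher and 704 lower, with a median of -0.15, and cls-2 had no call (0.14).

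Y37H9A.3 broke with these leading loci, at 5856, 5307 and 5017 in gonads and 6053, 5268 and 4865 in whole animals (0.00 on the log2 scale, adjusted p = 0.986, limma). It is 1 of 27 genes that the table lists in both 22G-RNA classes, with identical values in each. Of these 27, 3 were higher and 6 lower, and K06B9.2 and W07A8.2 of the CSR-1-class decreases named next belong to them. With the 27 left out, 23 CSR-1-class loci were lower in place of 29.

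The largest CSR-1-class increases with abundant reads were those of Y37D8A.21, sec-20, F07E5.5, C50D2.8 and inos-1, of 2.04 to 2.31. inos-1, which encodes an inositol phosphate synthase, had 2999, 2105 and 2229.6 in gonads and 426, 790.3 and 592 in whole animals (log2-scale change 2.04 ± 0.23 SE, adjusted p = 0.000455, limma), and sec-20, which encodes a SNARE, had 139, 127 and 205 in gonads and 24.6, 48.0 and 29.4 in whole animals (2.20). In both, whole animal library 2 was the highest of its group and well below the gonads. The largest decreases of the same kind were smaller, from -0.70 for skih-2, an RNA helicase gene of the SKI complex, to -1.15 for eps-8, which encodes an actin-capping protein, with W07A8.2 (-1.03), gly-5 (-0.83) and K06B9.2 (-0.73) between them. eps-8 had 78.9, 85.6 and 82.0 in gonads and 168, 167 and 223 in whole animals (a log2 change of -1.15 ± 0.15 SE, adjusted p = 0.000743, limma). gly-5, a glycosyltransferase gene, lost its call when gonad library 1 or 3 or whole animal library 1 or 3 was left out (-0.64 to -0.84). With library totals made equal, gly-5 (-0.54) and skih-2 (-0.41) had no call. cdc-14, ubh-4, W03F8.4 and tbc-2 had changes between -0.01 and 0.00 and no call.

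The gene groups with CSR-1-class loci are read beside the class, in which 60.9% of the loci tested were higher, with a median of 0.71. 22G-RNAs of all 11 germline markers were higher in gonads, with a median of 0.96. Of 25 meiotic chromosome genes 16 were higher and 9 had no call (median 1.00). him-3, a gene of the meiotic chromosome axis, had 513, 525 and 605 in gonads and 156, 224 and 181 in whole animals (log2 change 1.56 ± 0.15 SE, adjusted p = 0.000259, limma). spo-11, whose product makes the meiotic double-strand breaks, had 30.3, 25.9 and 31.3 in gonads and 73.8, 35.3 and 29.4 in whole animals and no call. Of 11 P granule genes 8 were higher. glh-4, which encodes a P granule helicase, had 2779, 2845 and 3421 in gonads and 828, 1264 and 1025.06 in whole animals (1.55), whereas gei-12, also a P granule gene, had 46.5, 39.3 and 35.7 in gonads and 61.5, 48.0 and 71.4 in whole animals and no call (-0.55, adjusted p = 0.0537, limma), and was called lower without whole animal library 2 (-0.71). Of 22 oocyte and eggshell genes 15 were higher (median 0.90). egg-4, needed for the oocyte-to-embryo transition, had 1795, 1636 and 1743 in gonads and 476, 703 and 651 in whole animals (1.52). oma-1, which promotes oocyte maturation, had 26.4, 31.99 and 25.5 in gonads and 32.8, 18.3 and 29.4 in whole animals and overlapped between groups.

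Of 13 Argonaute genes tested with CSR-1-class loci 9 were higher (median 0.59). wago-1, a germline WAGO Argonaute gene, had 589, 551 and 557 in gonads and 319.9, 303 and 302 in whole animals (log2-scale change 0.87 ± 0.0873 SE, adjusted p = 0.000288, limma). ergo-1, which encodes an Argonaute that binds 26G-RNAs, had 180.0, 149 and 161 in gonads and 168, 131 and 189 in whole animals and overlapped between groups. Of 9 mutator and RNA-dependent RNA polymerase genes 7 were higher, among them ego-1 (0.91), the germline polymerase gene, and mut-14 (1.09), a helicase gene of mutator foci. These shares stand beside 60.9% for the class. Under equal CSR-1-class totals, wago-1 (0.00), ego-1 (0.04) and mut-14 (0.22) had no call. Of the housekeeping groups, 16 of 16 DNA replication genes, 18 of 19 nuclear pore genes, 25 of 29 proteasome genes and 12 of 16 ribosomal protein genes were higher, with medians of 0.83, 0.72, 0.96 and 0.77, beside 60.9% and 0.71 for the class. With CSR-1-class totals made equal, the medians of these CSR-1-class groups came to 0.09 for germline markers, 0.13 for meiotic, 0.21 for P granule, 0.04 for oocyte and 0.10 for proteasome genes, and turned to -0.28 for Argonaute, -0.05 for mutator, -0.04 for replication, -0.15 for nuclear pore and -0.09 for ribosomal protein genes. Few somatic markers have CSR-1-class loci. vit-1 and vit-2, yolk protein genes of the intestine, had 22G-RNA values of 1.28, 0.252 and 0.364 and of 2.56, 0.504 and 0.364 in gonads, against 36.9, 40.9 and 16.8 and 28.7, 33.9 and 50.4 in whole animals, with changes of -4.28 and -4.28. Both passed the filter through whole animals alone and had to be lower, and the size of the change rests on a few gonad reads and on the pseudocount. snb-1, which encodes the synaptic vesicle protein synaptobrevin, had 37.95, 37.8 and 55.4 in gonads and 16.4, 22.6 and 12.6 in whole animals (1.31, adjusted p = 0.00729, limma), and act-4, an actin gene of muscle, had 20.9, 21.7 and 18.6 in gonads and 28.7, 16.9 and 8.402 in whole animals and no call (0.32). Under equal CSR-1-class totals, snb-1 lost its call (0.47) and the change of act-4 was -0.51.

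WAGO-class loci were the class with most loci near no change, with 1446 of 2421 without a call, and with a tail of strong decreases. The median was -0.24, a sign that turned with library totals made equal (0.06), and 55 loci fell by over 3 on the log2 scale. Transposon copies and pseudogenes, which the table marks, differed: 13 of 191 transposon loci were lower and 8 higher (median -0.07), and 76 of 178 pseudogenes were lower and 8 higher (median -0.28). Of 194 loci marked as coding sequence, 17 were lower and 6 higher. In the whole class 34.8% were lower and 5.45% higher. The 1858 tested gene loci without such a mark had 39.7% lower, near the 42.7% of the pseudogenes. Among loci with the most gonad reads, Y23H5A.1 had 10963, 10797 and 10067 in gonads and 10523, 10718 and 10066 in whole animals and eri-6, a helicase gene of the 26G-RNA pathway, had 11338, 11466 and 11381 in gonads and 12614, 12756 and 11242 in whole animals, without a call in either. WBTransposon00000216, the transposon copy with the most reads, had 14732, 14451 and 14768 in gonads and 11007, 12327 and 9641 in whole animals (a log2 change of 0.42 ± 0.0981 SE, adjusted p = 0.00852, limma), a call lost without whole animal library 3 (0.33) and with edgeR (0.32). Its sign turned with CSR-1-class totals made equal (-0.45). Y73B6BL.269 had 11878, 11334 and 9610.0 in gonads and 21460.2, 13524 and 17934 in whole animals (log2 change -0.67 ± 0.17 SE, adjusted p = 0.012, limma), and lost its call with library totals made equal (-0.37). nas-4, C25A1.1, T27F6.9, ZK1025.1 and cdc-25.2 had log2 changes that round to 0.00.

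The deepest decreases were at loci with almost no gonad 22G-RNAs. Y47H10A.5 had 10.7, 4.03 and 8.38 in gonads and 4827, 3743 and 4449 in whole animals (log2-scale change -9.04 ± 0.29 SE, adjusted p = 1.29e-06, limma). F55C9.3 and T08B6.2 had 0 reads in all 3 gonad libraries, against 217, 185 and 193 and 201, 135 and 122 in whole animals, at least 190.4-fold and at least 146-fold lower with 3 reads per library as the floor. Y43F8B.8 and ZK384.4 had at most 1.26 normalized reads in any gonad library and changed by -7.43 and -7.39. T08B6.2 is a target of ERGO-1, the Argonaute whose 26G-RNAs, made in oocytes and embryos, set off WAGO-class 22G-RNAs on a small group of genes. All 11 ERGO-1 targets listed were tested and lower, with a median of -4.66 beside -0.24 for the class. The filter let 57 of the 2421 WAGO-class loci through whole animals alone, 3 of these targets among them, which had to be lower. The other 8 targets had a median of -4.02. F55C9.3, T08B6.2, Y43F8B.8 and ZK384.4 each passed the filter through whole animals alone.

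K02E2.6 had 45.6, 48.9 and 53.2 in gonads and 1968, 1456 and 1916 in whole animals (a log2 change of -5.14 ± 0.14 SE, adjusted p = 9.39e-07, limma), and E01G4.5 had 59.7, 56.9 and 63.4 in gonads and 2124, 1478 and 1092 in whole animals (-4.63). C44B11.6 had 64.8, 57.7 and 45.2 in gonads and 1677, 1276 and 1937 in whole animals (-4.84), and W04B5.1 had 11.09, 7.05 and 5.83 in gonads and 656, 782 and 681 in whole animals (-6.34). In these 4 genes no gonad library held more than 64.8 normalized reads. C36A4.11 had 128, 114 and 116 in gonads and 1148, 1509 and 1193 in whole animals (-3.41), and F39E9.7 had 123, 114 and 125 in gonads and 968, 852 and 597 in whole animals (-2.70). K06B9.6, not a listed target, had values identical to those of C36A4.11, so these reads cannot be assigned to C36A4.11 alone. At the other end W05H12.2 had 233, 240.3 and 211 in gonads and 660.2, 646 and 571 in whole animals (-1.45) and H16D19.4 had 101, 102 and 98.0 in gonads and 213, 186 and 244 in whole animals (-1.08, adjusted p = 0.00056, limma). In all 11 targets every gonad library lay below every whole animal library, by margins that differed widely between targets. The mRNA of 7 of them was tested. C44B11.6 (-4.11) and W04B5.1 (-3.89) passed the mRNA filter through whole animals alone and had to be lower. Of the other 5, K02E2.6 was lower (-2.28) and 4 had no call. E01G4.5 mRNA was at 122, 135 and 125 normalized reads in gonads and 149, 164 and 186 in whole animals, without a call, since its change was under the fold threshold (-0.37, adjusted p = 0.0275, limma).

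F-box genes, a large family of ubiquitin ligase adaptors, had lower WAGO-class 22G-RNAs in gonads: of 79 tested of the 82 listed, 55 were lower and 1 higher (median -0.93), beside 34.8% lower of the class. Without whole animal library 2, 59 were lower with the features of all 6 libraries kept, and 52 of 72 tested with the filter applied anew. With library totals made equal 48 of the 79 were lower, and with CSR-1-class totals made equal 76. The filter let 7 of the 79, fbxa-52 and fbxa-46 among them, through whole animals alone, and of the other 72, 48 were lower, 1 higher and 23 without a call (median -0.86). fbxa-52 had 1.28, 1.26 and 0.364 in gonads and 197, 159 and 223 in whole animals (-6.65), and fbxa-46 changed by -4.28. Of 32 MATH and BTB genes, a family of Cullin adaptors, 15 were lower and 17 without a call (median -0.48), beside 34.8% lower and -0.24 for the class. Without the 2 that passed through whole animals alone, 13 of 30 were lower (median -0.44). With library totals made equal 8 of the 32 were lower and with CSR-1-class totals made equal all 32 (medians -0.18 and -1.33). unc-10, which encodes a protein of the synaptic active zone, had 209.8, 234 and 181 in gonads and 1128, 829.8 and 912 in whole animals (log2 change -2.19 ± 0.15 SE, adjusted p = 5.44e-05, limma), and its mRNA also fell by 1.42. It was the only 1 called lower of 3 neuron genes with WAGO-class loci, and the other 2 had no call (median of the 3 -0.22). The 1 muscle gene with a WAGO-class locus had no call (-0.30). Of the spermatogenesis genes, spe-15, spe-41, fer-1 and Y23H5A.4, the 4 listed with WAGO-class loci, had changes of -0.31 to 0.20 and no call, though fer-1 was called lower without whole animal library 2 (-0.60) and spe-15 higher without library 3 (0.50). With CSR-1-class totals made equal all 4 were lower (median -0.94).

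Of the WAGO-class loci tested, 132 were higher, and 1 with CSR-1-class totals made equal. The largest increases with abundant reads were those of Y9D1A.1, enu-3, F43G6.7, his-24 and Y53F4B.16, of 1.14 to 1.56. Y9D1A.1 had 145, 135 and 210.2 in gonads and 57.4, 80.4 and 33.6 in whole animals (log2-scale change 1.56 ± 0.32 SE, adjusted p = 0.00519, limma), and enu-3 had 452, 534 and 541 in gonads and 201, 247 and 164 in whole animals (1.33). The groups of both stayed apart. Under equal CSR-1-class totals, Y9D1A.1 (0.70), F43G6.7 (0.32), his-24 (0.27) and Y53F4B.16 (0.27) had no call. his-24, which encodes a linker histone H1, had 7416, 6469.6 and 7385 in gonads and 2981, 4263 and 2571 in whole animals (a log2 change of 1.15 ± 0.18 SE, adjusted p = 0.00159, limma). Its mRNA changed in the other direction, with 21.5, 18.9 and 18.2 normalized reads in gonads and 82.7, 103.5 and 52.2 in whole animals (-1.92, adjusted p = 0.000252, limma). Of 11 histone genes with WAGO-class loci, his-24 and his-35 were higher and his-50 and his-28 lower, the last pair with identical values. Their calls were lost without any 1 of the gonad libraries or whole animal library 1 (-0.57 to -0.87), with library totals made equal, TMM scaling, no low-value filter or DESeq2 (-0.48 to -0.79), and that of his-35 with CSR-1-class totals made equal (0.04). his-72 and his-74, histone H3.3 genes with CSR-1-class loci, were higher by 1.59 and 1.06, and his-74 had no call with CSR-1-class totals made equal (0.19). Of 9 collagen genes, whose products form the cuticle, 7 were higher (median 0.57), beside 5.45% higher and a median of -0.24 for the WAGO class. The direction of the collagen median turned with CSR-1-class totals made equal (-0.31). col-71 had 2026, 1718 and 1981 in gonads and 1411, 1401 and 1075 in whole animals (0.57), and its mRNA had 35.1, 37.7 and 35.4 in gonads and 82.7, 302 and 315 in whole animals (-2.43). Of 100 collagen mRNAs tested, 66 passed the filter through whole animals alone and had to be lower. Of the 34 read in both groups 29 were lower, beside 32.5% of the 8931 mRNAs read in both groups.

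**Figure D5:**
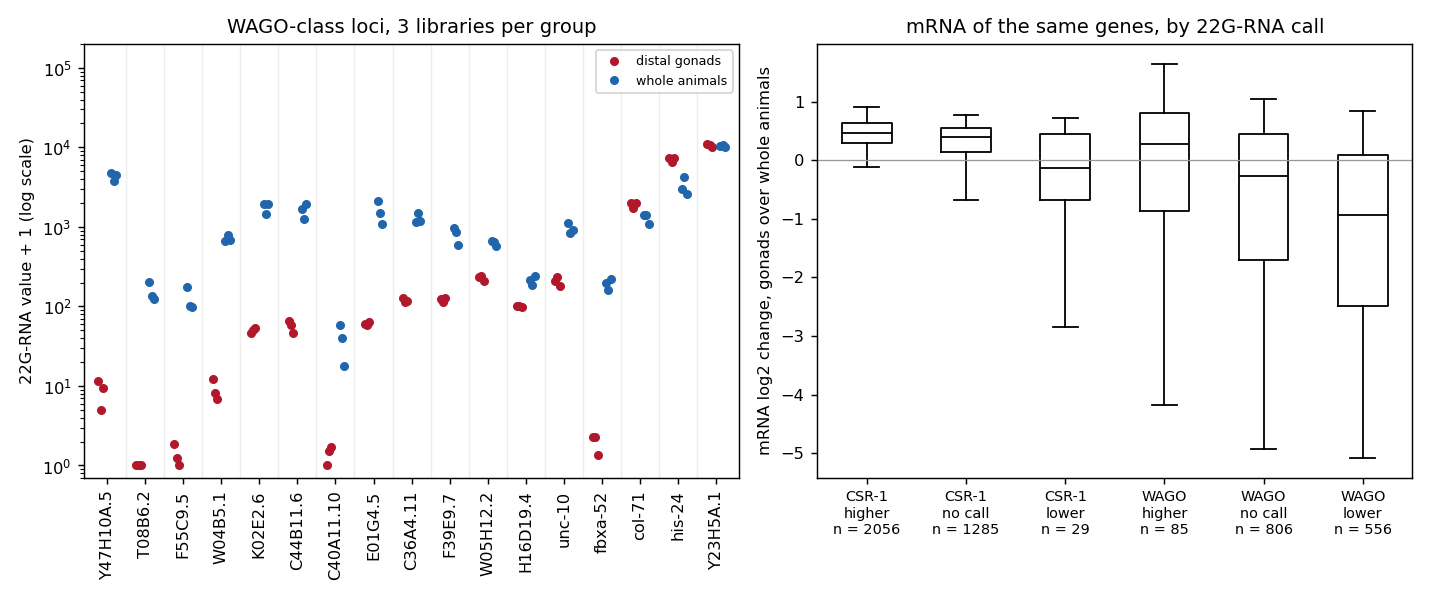
Left, normalized 22G-RNA reads plus 1 (log scale) of 17 WAGO-class loci in each library, gonads in red and whole animals in blue: Y47H10A.5, the 11 ERGO-1 targets, unc-10 and fbxa-52 lie lower in gonads, col-71 and his-24 higher, and Y23H5A.1 level. Right, mRNA log2 change by 22G-RNA call for all genes of both 22G-RNA classes with a tested mRNA, as median, quartiles and whiskers at percentiles 5 and 95. The medians are 0.48 for CSR-1-class loci called higher and -0.13 for those called lower, and 0.27 and -0.94 for WAGO-class loci.

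The mRNA libraries were set beside the 22G-RNA calls gene by gene. Among CSR-1-class loci called higher, 1327 of 2056 genes (64.5%) had higher and 44 lower mRNA, against 655 higher (51%) and 121 lower of 1285 with no 22G-RNA call. The share higher was 59.1% over all CSR-1-class loci and 26.1% over all mRNAs tested. Among WAGO-class loci called lower, 345 of 556 genes (62.1%) had lower and 72 higher mRNA, against 356 lower and 191 higher of 806 without a call (44.2% lower). The share lower was 50.2% over all WAGO-class loci and 52.6% over all mRNAs tested. Of the mRNAs that reached 10 normalized reads in at least 1 library of each group, 252 of 460 (54.8%) were lower at loci called lower. At loci without a call 265 of 709 (37.4%) were lower, beside 32.5% of all 8931 such mRNAs. The median changes of the 2 sets of loci were -0.66 and -0.08. The 132 WAGO-class loci called higher had no common mRNA direction, with 30 higher, 25 lower and 30 without a call among the 85 tested. Across genes, the changes of 22G-RNA and mRNA had a Spearman rho of 0.18 over 3370 CSR-1-class and 0.29 over 1447 WAGO-class loci, a description, since genes are not replicates and 22G-RNAs are copied from the mRNAs they match. Of the 55 WAGO-class loci that fell by over 3, 17 had a tested mRNA, of which 10 passed the filter through whole animals alone and had to be lower. Of the other 7, 5 were lower and 2 without a call. When a whole animal mRNA library was left out, the 62.1% came to 50 to 51.96%. The share of all mRNAs lower under that setting is not given here, so the 2 cannot be compared.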

How the data were processed

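The small RNA table holds normalized signal values that the authors deposited. They kept reads matching the WS230 genome perfectly (CASHX), counted them per feature with Perl scripts and SAMtools 1.6, and assigned each feature to a class. Bowtie2 2.3.4.1 and DESeq2 1.18.1 also stand in the submitters' processing notes. The mRNA signal was deposited by the authors in the same form, after STAR and RSEM. How values were scaled is not given in the sources used here, but every small RNA value was a whole multiple of 1 step per library (100% within 0.01 read), so reads were recovered.

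The R package limma 3.58.1 (R 4.3.3) was run on log2(value + 1), with robust moderation and a trend of variance over mean, after a filter of 10 normalized reads in at least 3 libraries. Calls needed an adjusted p (Benjamini-Hochberg) under 0.05 over all features with a 1.3-fold change. edgeR 4.0.16 and DESeq2 1.42.0 on recovered reads were alternatives, as were other scalings, filters and pseudocounts, a replicate block and each library left out. The code was tested on simulated data. Class shares used an exact permutation test. The labels name 3 replicates per group, which the study calls biological, and p-values measure the spread between them. Features that share reads (105 WAGO-class loci have values identical to another's) are not independent.

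Named per class were the 5 features with the highest gonad mean, the 5 largest increases and decreases among called features with a mean of at least 100 in the higher group and no overlap, the 5 smallest changes without a call, listed genes and all miRNAs called higher; other arms of named hairpins, miR-58-3p and genes of both classes were picked after their values were seen. Members and lists were chosen with earlier results of these data known. Gene symbols come from RefSeq (WBcel235), used for names and neighbours only. Mutant and transposon tables were not used here.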

Additional observations from a re-analysis of the deposited data

How the results depend on the processing

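With CSR-1-class totals made equal, 298 features were higher and 4144 lower. By class this gave 265 higher and 704 lower CSR-1-class loci, 1 and 2189 WAGO-class loci, and 30 and 1116 piRNAs, and it reversed ppw-1 (-0.42), col-71 (-0.31) and the transposon locus with the most gonad reads (-0.45). With library totals made equal, 6 miRNAs, 159 piRNAs and 407 WAGO-class loci were higher, and 8 CSR-1-class and 525 WAGO-class loci lower. TMM scaling gave 239 higher WAGO-class and 17 lower CSR-1-class loci. Without a low-value filter 1147 piRNAs were lower, and 1317 with a mean over 1. edgeR called 44 CSR-1-class loci lower and 81 WAGO-class loci higher, and DESeq2 called 2582 features and 1545 piRNAs lower.

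When each library was left out, with the filter applied anew or with the features of all 6 libraries kept (the second chosen after seeing the data), 1656 to 2454 features were higher and 1165 to 1760 lower. miRNAs ran over 2 to 5 higher and 55 to 127 lower, since with 2 whole animal libraries a miRNA read there alone cannot reach 10 in 3 libraries. piRNAs ran over 46 to 146 higher and 362 to 711 lower, CSR-1-class loci over 1539 to 2120 higher and 15 to 42 lower, and WAGO-class loci over 69 to 183 higher and 636 to 881 lower. The low counts of higher piRNAs (46) and of higher WAGO-class loci (69) came without gonad library 3, that of lower piRNAs (362) without whole animal library 3 under the renewed filter, and the high counts (146 and 183) without whole animal library 2. Apart from the filter, the cause was not tested. Same-numbered libraries of the 2 groups had residual correlations of 0.093, -0.111 and -0.097. Residuals from 3 libraries per group cannot show whether the same numbers mark paired samples. A replicate block gave 2197 higher and 1593 lower features and changed no call of a named feature.

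Without the 10 highest features, the gonad minus whole animal gap in share was -15.5 points for miRNAs, 22.4 for CSR-1-class and -4.23 for WAGO-class loci, which changed sign from 3.24. The share of higher CSR-1-class loci with higher mRNA was 70.5% with CSR-1-class totals made equal, 46.5% with mRNA totals made equal and 58.8 to 67.0% with each library left out. That of lower WAGO-class loci with lower mRNA was 68.5% with small RNA totals made equal, 51.2% with CSR-1-class totals made equal, 53.7% with no filter on mRNA and 50 to 64.0% with each library left out. Depth limits whole animals, where 3 reads are worth 4.23 to 12.6 normalized reads.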

Other observations

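Log2 changes of neighbouring piRNA genes correlated where the genes overlapped and hardly elsewhere. All 1253 tested piRNAs matched a RefSeq gene by name. In 133 adjacent pairs the 2 genes overlap, and their log2 changes had a Pearson r of 0.92. In 580 adjacent pairs that lie within 2000 bases of each other without overlap, r was 0.01. These are descriptions across pairs that share libraries, and reads that fit both members of an overlapping pair may be counted in each. The counts of piRNAs called are therefore counts of listed features and not of independent piRNAs.

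Of 556 genes with lower WAGO-class 22G-RNAs and a tested mRNA, 72 (12.9%) had higher mRNA in distal gonads, against 23.7% of WAGO-class loci without a 22G-RNA call and 26.1% of all mRNAs tested. F46F2.4 had a mean of 1376 normalized 22G-RNA reads in the gonad libraries and 2912 in whole animals, with a mean mRNA of 26.99 in gonads and 10.3 in whole animals (log2 changes -1.08 and 1.31). C32B5.6 had 910.2 in gonads and 1819.6 in whole animals for 22G-RNAs, and 74.9 in gonads and 19.2 in whole animals for mRNA (-0.97 and 1.92). R11A8.1 had changes of -0.98 for 22G-RNAs and 0.99 for mRNA. These 3 genes were chosen after their values were seen.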
